A study of Homo sapiens with 18 samples.

Results

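NEAT1 and MALAT1 are nuclear long non-coding RNAs, and SFPQ, NONO, PSPC1, TARDBP and HNRNPK encode RNA-binding proteins found at paraspeckles, the nuclear bodies that NEAT1 builds. These 7 genes, of 26485 genes in the counts table, were chosen by name, with earlier results of these data known. All 7 members passed the filter on low counts and were among the 12832 genes tested. Their levels were compared in SW620 cells, a human colon cancer line, after heat shock and after silencing of LONP1, the mitochondrial protease Lonp1.

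Paraspeckles form on the long NEAT1 transcript, which is bound along its length by SFPQ, NONO and PSPC1, the DBHS family of RNA-binding proteins that pair with one another. A short NEAT1 transcript starts at the same site and ends early at a poly(A) signal, and HNRNPK and TARDBP are both known to affect the choice between the short and the long end. MALAT1, the gene after NEAT1 on the chromosome, makes an RNA of nuclear speckles, which are storage sites for splicing factors.

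The 3′ ends of these RNAs are shown because the libraries were made from poly(A)-selected RNA, which decides which NEAT1 and MALAT1 molecules could be read. All sequences are from genome build hg38, plus strand, and are written 5′ to 3′. In the first and second, capitals mark the motifs TTTTGCTTTT and AAAAGCAAAA, which are reverse complements of each other, and in the third they mark AATAAA, the hexamer of a poly(A) signal. The first ends at the base before mascRNA, the tRNA-like RNA that RefSeq places at chr11:65506117-65506174.
MALAT1 before mascRNA (chr11:65506017-65506116): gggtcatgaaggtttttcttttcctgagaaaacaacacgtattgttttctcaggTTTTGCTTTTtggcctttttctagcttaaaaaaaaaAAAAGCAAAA
NEAT1 long transcript (chr11:65445441-65445540): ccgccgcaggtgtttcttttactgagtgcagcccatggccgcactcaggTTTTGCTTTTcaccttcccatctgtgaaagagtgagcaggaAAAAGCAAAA
NEAT1 short transcript (chr11:65426414-65426513): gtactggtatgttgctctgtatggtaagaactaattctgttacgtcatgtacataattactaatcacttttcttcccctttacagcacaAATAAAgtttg

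The motif AAAAGCAAAA was taken as the last 10 bases of the long NEAT1 transcript, and TTTTGCTTTT as its reverse complement. That the long NEAT1 end stops in AAAAGCAAAA was therefore fixed by this choice. The MALAT1 end and the long NEAT1 end each held 1 copy of both 10-base motifs and no AATAAA, and the short NEAT1 end held AATAAA alone. Both ends with the 10-base pair stopped in AAAAGCAAAA, an A-rich stretch that is known to be part of a triple helix formed there instead of a poly(A) tail. Among the last 100 bases of 210470 distinct GENCODE transcript ends, read on the transcript's strand, 0.141% held AAAAGCAAAA, 0.1% held TTTTGCTTTT, 2 held both, and 26% held AATAAA. This set of ends includes that of the long NEAT1 transcript, from which both 10-base motifs were derived. GENCODE version 44 lists 9 NEAT1 transcripts, and 8 of them end within the first 4 kb of the gene. The longest, of 22743 bases in 1 exon, is the only one that reaches the end of the gene. A single count per gene therefore adds together all NEAT1 forms that were read, and the short and long forms cannot be told apart in these data. How much of the long form, which ends without a poly(A) tail, entered these poly(A)-selected libraries was not tested. The NEAT1 values below are therefore not levels of the long transcript alone.

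The 18 libraries fell into 6 groups of 3. Cells were transfected with a scramble siRNA, the control, or with siLonp1, an siRNA against LONP1. Each siRNA arm had a group that stayed at 37 °C (Ctrl), a group heated to 42 °C for 1 h (HS), and a group given the same heating followed by 1 h of recovery at 37 °C (HS+REC). The study describes the 3 libraries of a group as independent biological replicates. It used more than 1 siRNA against LONP1 in its experiments, and which of them these libraries carry is not given in the sources used here, so effects of that siRNA on other RNAs cannot be told apart from loss of Lonp1. The line is a single cancer-derived culture.

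Each library held 30815860 to 47279297 counts (median 40847024.5). Levels are given as CPM, counts scaled to a common library size. LONP1 stood between 196.6 and 233.1 CPM in the 9 scramble libraries and between 11.55 and 28.86 CPM in the 9 siLonp1 libraries, so every library matched its siRNA label. Of 8 epithelial and intestinal markers, 7 passed the filter, among them KRT8 (4925 CPM in Ctrl scramble) and EPCAM (379 CPM), and CDX1 had no count in any library. Of 8 markers of other cell types, 4 passed. PTPRC, CD3E and COL1A2 reached at most 0.0741 CPM in any library, and PECAM1 reached 0.432 CPM in an HS+REC siLonp1 library, with means of 0.092 to 0.13 CPM in the scramble and 0.202 to 0.344 CPM in the siLonp1 groups. The summed level of these 8 ran from 52.26 to 58.09 CPM in Ctrl scramble and from 35.74 to 38.47 CPM in Ctrl siLonp1. It was 52.57 to 56.73 CPM in HS scramble, 41.91 to 45.69 CPM in HS siLonp1, 73.03 to 74.46 CPM in HS+REC scramble and 59.83 to 63.56 CPM in HS+REC siLonp1. COL1A1, a fibrillar collagen gene, rose with heat, LUM, the lumican gene, fell with HS and with siLonp1, and CD68, a macrophage marker, rose with siLonp1. Their part in the results below was not tested.

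In these bulk libraries, fewer cells carrying an RNA and less RNA per cell cannot be told apart. The members held 0.327% to 0.356% of each library's counts, nearly all of it from the protein genes. NEAT1 and MALAT1 together held 0.00517% to 0.00972%. In Ctrl scramble, per kilobase of the canonical transcript, NONO was highest at 480 CPM per kb, followed by HNRNPK at 324, SFPQ at 167, TARDBP at 63.6 and PSPC1 at 31.2 CPM per kb. MALAT1 was at 2.82 ± 0.294 CPM per kb (SD, n = 3). NEAT1 was at 0.932 ± 0.188 CPM per kb over the long transcript and at 6.16 ± 1.24 CPM per kb over NEAT1-201, a short form of 3441 bases, so its place relative to MALAT1 depended on which length was used. NEAT1 was read by 518 to 1972 counts per library and MALAT1 by 1076 to 2415.

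NEAT1 was raised by heat in both siRNA arms and lowered by siLonp1 in all 3 conditions. At 37 °C with scramble siRNA, NEAT1 stood at 17.87, 19.69 and 26.02 CPM in the 3 libraries. After HS the scramble libraries held 37.56, 43.57 and 37.62 CPM, and after HS+REC they held 34.95, 38.39 and 37.16 CPM. Every heated scramble library lay above every Ctrl scramble library, and HS and HS+REC overlapped each other.

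In the siLonp1 arm NEAT1 stood at 13.18, 14.55 and 15.1 CPM in Ctrl siLonp1, at 32.75, 31.64 and 34.21 CPM in HS siLonp1 and at 32.59, 30.95 and 29.63 CPM in HS+REC siLonp1. Within each condition all 3 siLonp1 libraries were below all 3 scramble libraries. The 3 Ctrl siLonp1 libraries were the lowest of all 18.

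In edgeR's quasi-likelihood test with Benjamini-Hochberg adjustment over all genes tested, NEAT1 rose by 0.90 (log2, SE 0.10, adjusted p = 9.29e-08) with HS in scramble cells, which is 1.87-fold. With siLonp1 the HS effect was 1.20 (SE 0.10, adjusted p = 1.1e-09), or 2.30-fold, and placed NEAT1 at position 296 from the top of the 12832 genes ordered by log2 fold change. After HS+REC the rise against Ctrl was 0.80 (adjusted p = 4.39e-07) in scramble and 1.12 (adjusted p = 2.57e-09) in siLonp1 cells. HS and HS+REC were each compared with the same Ctrl libraries, so these values are not independent of each other. Between HS and HS+REC NEAT1 differed by -0.11 (95% interval -0.30 to 0.09) in scramble and by -0.08 (-0.28 to 0.12) in siLonp1 cells, and neither passed the test.

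**Figure D1:**
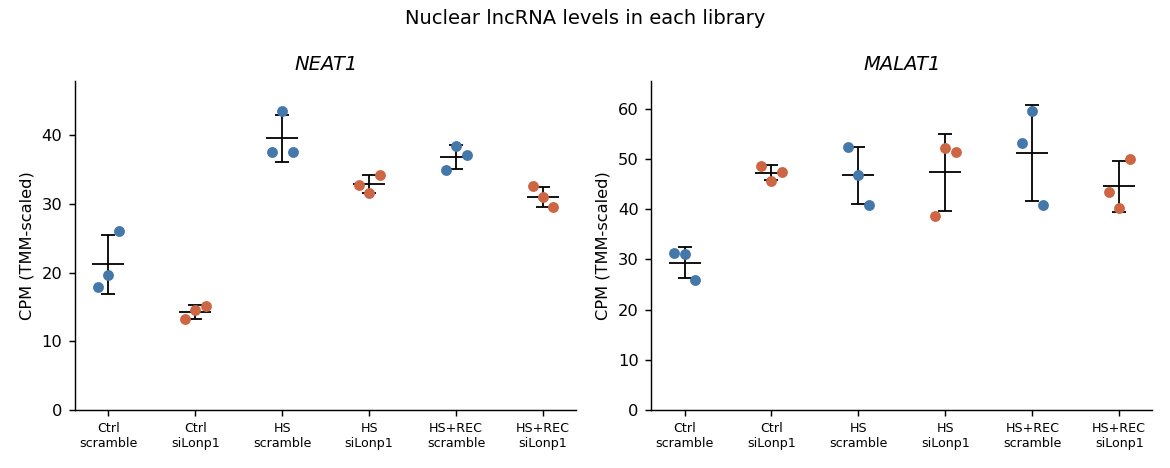
NEAT1 and MALAT1 in each library, in TMM-scaled CPM (y axis, from 0) by group (x axis), with 1 point per library and a bar for the mean and SD of 3. All 12 heated NEAT1 libraries lie above the 6 Ctrl libraries, while for MALAT1 the 3 Ctrl scramble libraries, at 25.85 to 31.32 CPM, lie below the other 15.

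With siLonp1, NEAT1 fell by 0.57 on the log2 scale at 37 °C (SE 0.10, adjusted p = 8.01e-05), a change of -32.6%. It fell by 0.27 after HS (adjusted p = 0.0207) and by 0.25 after HS+REC (adjusted p = 0.0338). These smaller differences depended on single libraries. After HS, NEAT1 no longer passed when HS scramble replicate 2 was left out (-0.19, adjusted p = 0.129), nor when HS siLonp1 replicate 2 was (-0.24, adjusted p = 0.0715). After HS+REC it no longer passed when replicate 2 or 3 of either arm was left out, with values from -0.24 to -0.21. The difference between the arms in the heat effect itself was 0.30 for HS (95% interval 0.01 to 0.59, adjusted p = 0.309) and 0.32 for HS+REC (0.03 to 0.61, adjusted p = 0.297), and neither passed the test over all genes.

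MALAT1 rose with heat in scramble cells and rose with siLonp1 at 37 °C, while its heat effect in siLonp1 cells did not pass the test. In Ctrl scramble MALAT1 stood at 31.32, 31.01 and 25.85 CPM. The HS scramble libraries held 52.46, 46.93 and 40.97 CPM, and the HS+REC scramble libraries held 53.17, 59.66 and 40.85 CPM. All heated scramble libraries were above all Ctrl scramble libraries and HS and HS+REC overlapped each other.

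In Ctrl siLonp1 MALAT1 was already at 48.65, 45.69 and 47.51 CPM. HS siLonp1 libraries held 38.6, 52.31 and 51.41 CPM, and HS+REC siLonp1 libraries held 43.46, 40.23 and 50.11 CPM. The heated siLonp1 libraries overlapped Ctrl siLonp1, and they overlapped the heated scramble libraries as well.

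MALAT1 rose by 0.67 with HS (log2, SE 0.12, 95% interval 0.41 to 0.93, adjusted p = 0.000163 in edgeR's quasi-likelihood test) and by 0.80 with HS+REC (SE 0.12, adjusted p = 1.37e-05) in scramble cells, which are 1.59-fold and 1.74-fold. With siLonp1 at 37 °C it rose by 0.69 (SE 0.12, adjusted p = 9.29e-05), a 60.8% increase. NEAT1, 52.1 kb upstream of MALAT1, fell in that same comparison. In siLonp1 cells the HS effect was 0.00 (-0.25 to 0.26) and the HS+REC effect -0.08 (-0.34 to 0.17). The siLonp1 effect was 0.02 after HS (-0.24 to 0.27) and -0.20 after HS+REC (-0.45 to 0.05, adjusted p = 0.175). Without HS+REC scramble replicate 3 that last value was -0.34 and passed the test (adjusted p = 0.017).

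The heat effect on MALAT1 differed between the siRNA arms. For HS+REC the effect in siLonp1 cells minus that in scramble cells was -0.88 (SE 0.17, 95% interval -1.25 to -0.52, adjusted p = 0.00959), and it passed the test without each single library, between -1.02 and -0.76. Over all genes tested, 1.58% passed this test. For HS the difference was -0.67 (SE 0.17, -1.03 to -0.31, adjusted p = 0.049), where 1.87% of all genes passed. That call sat at the threshold and was lost in 10 of 12 fits without a single library, those without HS scramble replicate 3 and HS siLonp1 replicate 2 being the exceptions. Its values without a library ran from -0.76 to -0.54. Both differences share the Ctrl libraries, which were low in scramble and high in siLonp1 cells.

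The NEAT1 to MALAT1 ratio of counts within a library, which no scaling between libraries can alter, was lowest in Ctrl siLonp1. It was 0.271, 0.319 and 0.318 there, against 0.571, 0.635 and 1.01 in Ctrl scramble. In the 4 heated groups the mean ratio was between 0.703 and 0.854, with SDs from 0.0976 to 0.15. The heated libraries of both arms overlapped Ctrl scramble and were all above Ctrl siLonp1. Over the 18 libraries the log2 levels of NEAT1 and MALAT1 had a correlation of 0.26, and their deviations from the group means had one of -0.3, given as a description over libraries that share groups.

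SFPQ, the DBHS protein needed to stabilise NEAT1 in paraspeckles, was raised by siLonp1 in all 3 conditions by a small amount. In Ctrl it stood at 659.4, 601.6 and 610.7 CPM in scramble and at 681.7, 742.4 and 735.7 CPM in siLonp1 libraries. In HS+REC it stood at 621.6, 651.5 and 703.2 CPM in scramble and at 832.7, 847.0 and 771.9 CPM in siLonp1 libraries. In both conditions, and after HS, the arms did not overlap, and the 2 highest SFPQ values of the series were in HS+REC siLonp1.

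The siLonp1 effect on SFPQ was 0.21 in Ctrl (log2, SE 0.06, adjusted p = 0.00677), 0.15 after HS (adjusted p = 0.0387) and 0.31 after HS+REC (adjusted p = 0.000154), the last a 24% increase. After HS, SFPQ no longer passed when replicate 1 or 3 of HS scramble, or replicate 2 or 3 of HS siLonp1, was left out, with values from 0.10 to 0.16. With heat, SFPQ passed the test in HS+REC siLonp1 against Ctrl siLonp1 (0.18, adjusted p = 0.0141), and without Ctrl siLonp1 replicate 1 (0.15, adjusted p = 0.0849) or HS+REC siLonp1 replicate 2 (0.16, adjusted p = 0.0535) it did not pass. The HS effects were 0.11 (adjusted p = 0.168) in scramble and 0.05 in siLonp1 cells. Without HS scramble replicate 3 the former was 0.17 and passed (adjusted p = 0.0468). When libraries were scaled by their totals alone, without TMM factors, the siLonp1 effect on SFPQ was 0.13 in Ctrl and 0.05 after HS, and neither passed, while that after HS+REC was 0.24 (adjusted p = 0.00174).

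NONO, the partner of SFPQ and the most abundant member, passed no test in edgeR. In Ctrl scramble it stood at 1295.7, 1266.5 and 1269.3 CPM, and after HS at 1191.9, 1197.6 and 1246.9 CPM. In Ctrl siLonp1 it stood at 1359.9, 1385.4 and 1337.9 CPM, and after HS at 1261.8, 1282.8 and 1270.3 CPM. All HS libraries were below all Ctrl libraries of their own arm, but the differences were small, at -0.08 (log2, 95% interval -0.17 to 0.02) in scramble and -0.10 (-0.20 to 0.00) in siLonp1 cells. With DESeq2 the latter passed narrowly (adjusted p = 0.0495), and with totals-only scaling it was -0.15 (adjusted p = 0.00974). The siLonp1 effect on NONO lay between 0.01 and 0.09 in the 3 conditions, and with totals-only scaling it turned negative after HS (-0.03) and after HS+REC (-0.06).

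PSPC1, the third DBHS gene, rose with siLonp1 in Ctrl by 0.16 (log2, SE 0.06, adjusted p = 0.0248) and from HS to HS+REC in siLonp1 cells by 0.16 (adjusted p = 0.044). Its Ctrl values were 78.06, 73.45 and 76.23 CPM in scramble and 78.98, 88.46 and 87.71 CPM in siLonp1 libraries, separated by under 1 CPM at the nearest. Neither call was firm. The first was lost without Ctrl scramble replicate 2 or 3 or Ctrl siLonp1 replicate 2 or 3 (0.14 to 0.17), and the second without HS siLonp1 replicate 2 or 3 or HS+REC siLonp1 replicate 1 (0.11 to 0.16), and with totals-only scaling both failed the test. The ratio of SFPQ to NONO counts, partners in the same complexes, was 0.488 ± 0.0181 (SD, n = 3) in Ctrl scramble, 0.556 ± 0.0389 after HS and 0.513 ± 0.0388 after HS+REC. In siLonp1 libraries it was 0.529 ± 0.025, 0.587 ± 0.0152 and 0.63 ± 0.043 in the same order. Ctrl scramble overlapped Ctrl siLonp1 and HS+REC scramble, and lay below all libraries of the other 3 groups.

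**Figure D2:**
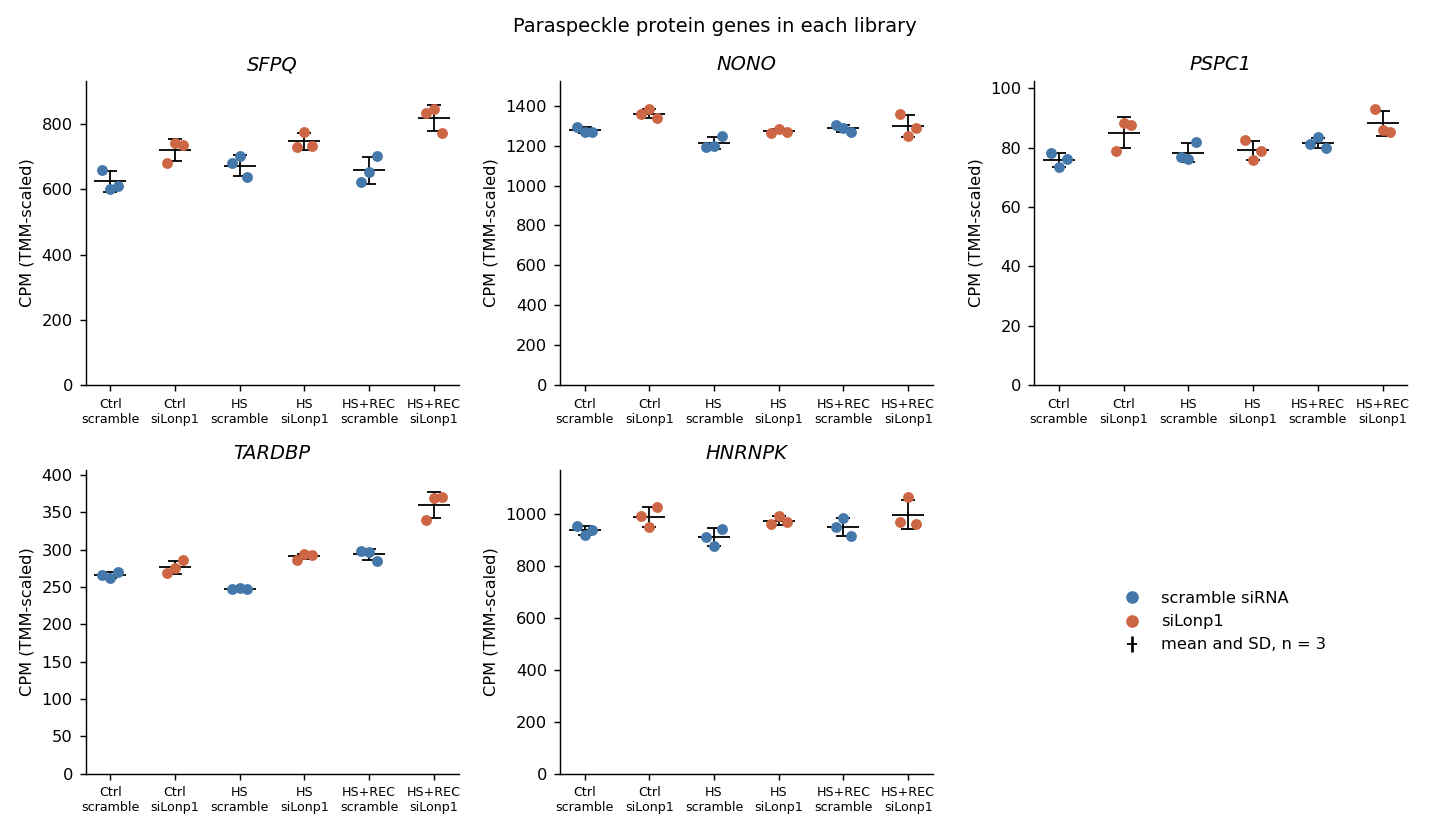
SFPQ, NONO, PSPC1, TARDBP and HNRNPK in each library, in TMM-scaled CPM (y axes, each from 0) by group (x axis), with 1 point per library and a bar for the mean and SD of 3. TARDBP in HS+REC siLonp1, at 339.5 to 370.1 CPM, stands above all other groups, whereas the HNRNPK groups lie close together.

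TARDBP, which encodes the RNA-binding protein TDP-43, was raised after recovery from heat in both arms and by siLonp1 after heat. In scramble cells it went from 266.7, 261.6 and 269.9 CPM in Ctrl to 247.5, 248.8 and 247.5 CPM after HS and 298.3, 297.5 and 285.1 CPM after HS+REC. In siLonp1 cells it went from 269.0, 275.1 and 285.9 CPM in Ctrl to 286.8, 293.9 and 292.6 CPM after HS and 339.5, 369.0 and 370.1 CPM after HS+REC. The 3 HS scramble libraries were the lowest of the 18 and the 3 HS+REC siLonp1 libraries the highest, with no overlap with any other group.

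Between HS and HS+REC TARDBP rose by 0.24 (log2, SE 0.05, adjusted p = 0.000582) in scramble and by 0.30 (SE 0.05, adjusted p = 3.63e-05) in siLonp1 cells. Against Ctrl, HS+REC raised it by 0.38 (adjusted p = 9.44e-07) in siLonp1 cells, which is 30%. In scramble cells the same comparison gave 0.14 (adjusted p = 0.0242), and this call was lost without Ctrl scramble replicate 1 or 2 or HS+REC scramble replicate 1 or 2 (0.13 to 0.14) and with totals-only scaling (0.06). The HS effect was -0.10 (95% interval -0.20 to 0.00) in scramble and 0.07 (-0.03 to 0.18) in siLonp1 cells, and neither passed, although the HS libraries lay all below Ctrl in scramble and all above Ctrl in siLonp1 cells.

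The siLonp1 effect on TARDBP was 0.23 after HS (SE 0.05, adjusted p = 0.000443) and 0.29 after HS+REC (SE 0.05, adjusted p = 3.39e-05), with every siLonp1 library above every scramble library. At 37 °C it was 0.06 (-0.05 to 0.16), and the groups overlapped. The HS+REC effect in siLonp1 cells minus that in scramble cells was 0.24 (0.09 to 0.38). This difference did not pass in edgeR (adjusted p = 0.0992), passed with DESeq2 (0.25, adjusted p = 0.00767), and passed in edgeR without HS+REC siLonp1 replicate 1 (0.27, adjusted p = 0.049). With totals-only scaling the siLonp1 effects were 0.14 after HS and 0.22 after HS+REC, and both still passed, while that in Ctrl turned to -0.02.

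HNRNPK, the poly(C)-binding hnRNP protein that favours the long NEAT1 transcript, passed no test in any of the 12 comparisons. Its group means lay between 909.6 CPM in HS scramble and 996.8 CPM in HS+REC siLonp1. The HS effects were -0.04 (95% interval -0.15 to 0.07) in scramble and -0.02 (-0.13 to 0.09) in siLonp1 cells, and the HS+REC effects were 0.02 (-0.09 to 0.13) and 0.01 (-0.10 to 0.12). The siLonp1 effects were 0.08 in Ctrl, 0.10 after HS (-0.01 to 0.21) and 0.07 after HS+REC, and with totals-only scaling all 3 were 0.00. HNRNPK has 5 pseudogenes by symbol in the annotation, TARDBP 3, PSPC1 2, and SFPQ and NONO 1 each, and how reads matching both were counted is not given in the sources used here.

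Counted together, 2 of 7 members were called with HS in scramble cells (NEAT1 and MALAT1, both higher), where 36% of all genes tested were called. With HS in siLonp1 cells 1 of 7 was called (NEAT1), against 42.2% of all genes. With HS+REC 3 of 7 were higher in scramble (NEAT1, MALAT1, TARDBP), where 42.3% of all genes were called, and 3 of 7 in siLonp1 cells (NEAT1, SFPQ, TARDBP), where 51.2% were. Between HS and HS+REC 1 member passed in scramble (TARDBP) and 2 in siLonp1 cells (TARDBP, PSPC1), against 26.8% and 31.9% of all genes. For siLonp1 in Ctrl 3 members were higher (MALAT1, SFPQ, PSPC1) and 1 lower (NEAT1), with 49.2% of all genes called. After HS and after HS+REC 2 were higher (SFPQ, TARDBP) and 1 lower (NEAT1), with 54.8% and 54.1% of all genes called. The share of members called was below that of all genes in 7 of these 9 comparisons, level with it for HS+REC in scramble cells and above it for siLonp1 in Ctrl, and the members as a set were not tested. Of the differences between the arms, 1 member passed for HS and 1 for HS+REC (MALAT1 in both), where 1.87% and 1.58% of all genes passed. None passed for the change from HS to HS+REC, where 1.38% of all genes did.

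**Figure D3:**
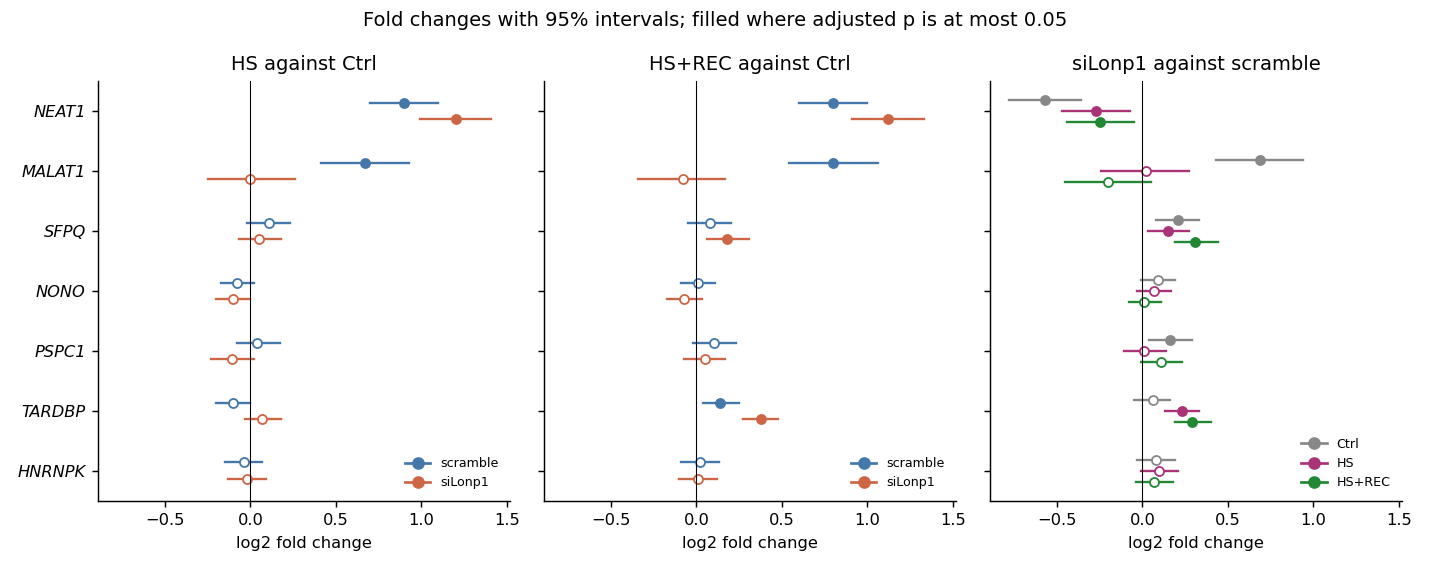
Log2 fold change of each member (x axis) with its 95% interval for HS against Ctrl, HS+REC against Ctrl (by siRNA arm) and siLonp1 against scramble (by condition), with filled points where the edgeR adjusted p is at most 0.05. NEAT1 is to the right of 0 in all 4 heat comparisons and to the left in all 3 siLonp1 comparisons, while MALAT1 is to the right in scramble and near 0 in siLonp1 cells.

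When the study's fold limit of 2 was added, NEAT1 was called with HS in siLonp1 cells, where 4.57% of all genes passed, and with HS+REC in siLonp1 cells (2.18-fold), where 5.71% passed, and no member was called in the other 10 comparisons. Of all the protein members, the largest change in any comparison was the 30% rise of TARDBP after HS+REC in siLonp1 cells.

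Other genes of paraspeckle proteins moved in both directions with heat. Of 31 such genes, 5 rose and 5 fell with HS in scramble cells (median -0.01 on the log2 scale, against -0.01 over all genes tested, of which 36% were called), and 6 rose and 9 fell in siLonp1 cells (median -0.08, against 0 over all genes, 42.2% called). RBM14, whose protein is needed for paraspeckles to form, rose by 0.46 in both arms (adjusted p = 7.81e-06 in scramble and 4.63e-06 in siLonp1 cells). AHDC1 fell by 0.46 in scramble and by 1.2 in siLonp1 cells, and that difference passed its own test (-0.73, adjusted p = 0.00649). Its means were 18.38 ± 0.354 and 26.08 ± 3.37 CPM in Ctrl and 13.24 ± 2.07 and 11.39 ± 0.931 CPM after HS, in scramble and siLonp1 cells (SD, n = 3). RUNX3, a Runt-family transcription factor, rose by 0.37 in scramble cells and had an effect of 0.00 in siLonp1 cells, a difference at the threshold (-0.37, adjusted p = 0.0473). RBM12 fell by 0.7 in scramble and by 0.79 in siLonp1 cells with HS+REC, whereas ZC3H6 rose by 0.64 and 0.86 and AKAP8L by 0.59 and 0.48. With HS+REC 8 of the 31 rose and 7 fell in scramble cells, and 8 rose and 11 fell in siLonp1 cells, where 42.3% and 51.2% of all genes were called.

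With siLonp1, 11 of the 31 rose and 2 fell in Ctrl (median 0.08, against 0.01 over all genes), 9 rose and 3 fell after HS, and 9 rose and 3 fell after HS+REC. Of all genes 49.2%, 54.8% and 54.1% were called there, so the list's share called was below the background in all 3. SS18L1, which encodes a subunit of the neuronal BAF chromatin-remodelling complex, rose in each condition, by 0.98, 0.93 and 1.08. Its mean went from 20.15 ± 0.924 to 39.87 ± 2.67 CPM in Ctrl (SD, n = 3). HNRNPUL1 rose by 0.41, 0.34 and 0.45. In Ctrl AHDC1 rose by 0.51 and RBM12 by 0.46, while ZC3H6 fell by 0.5.

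Of 17 other hnRNP genes, relatives of HNRNPK that package pre-mRNA, 3 rose and 3 fell with HS in scramble and 3 rose and 5 fell in siLonp1 cells, near the 36% and 42.2% of all genes called. HNRNPH2 had the largest change with HS in scramble cells, a rise of 0.87 (adjusted p = 0.00333) from a low 0.822 ± 0.148 to 1.49 ± 0.186 CPM (SD, n = 3), and it rose by 0.85 with HS+REC in siLonp1 cells (adjusted p = 0.00133). HNRNPAB fell by 0.19 and 0.39 with HS. PCBP1, a poly(C)-binding protein like HNRNPK, rose by 0.28 and 0.34 with HS, and by 0.35 and 0.37 with HS+REC, in scramble and siLonp1 cells. SYNCRIP fell by 0.28 and 0.47 with HS+REC. With siLonp1 3 rose and 2 fell in Ctrl, 4 rose and 4 fell after HS, and 4 rose and 2 fell after HS+REC, all below the 49.2%, 54.8% and 54.1% of all genes called. HNRNPA3 rose by 0.19, 0.32 and 0.32, and HNRNPH2 rose by 0.87 after HS+REC (adjusted p = 0.000968). The medians of this list were 0 in all 3.

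Of 15 genes tested in a list of nuclear speckle genes, most of whose products share the bodies where MALAT1 resides, 4 rose and 1 fell with HS in scramble and 5 rose and 2 fell in siLonp1 cells, where 36% and 42.2% of all genes were called. RBM25, a splicing regulator, rose by 0.58 and 0.72, and SF3B1, a core subunit of the U2 snRNP, by 0.28 and 0.5. THRAP3 fell by 0.37 and 0.57. With HS+REC 4 rose and 2 fell in scramble and 4 rose and 3 fell in siLonp1 cells, where 42.3% and 51.2% of all genes were called. THRAP3 fell there by 0.61 and 0.88, and RBM39, a splicing coactivator, rose by 0.6 and 0.65. METTL16, in the list as a methyltransferase known to bind the MALAT1 triple helix, rose by 0.31 with HS in scramble cells and by 0.42 with siLonp1 in Ctrl (adjusted p = 1.42e-05), from 77.19 ± 3.7 to 103.5 ± 0.638 CPM. With siLonp1, 3 of the 15 rose and 3 fell in Ctrl, and 5 rose and 3 fell after HS and after HS+REC. Of all genes 49.2%, 54.8% and 54.1% were called in these comparisons. RNPS1 was higher by 0.36, 0.39 and 0.32 and SART1 lower by 0.24, 0.45 and 0.41.

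**Figure D4:**
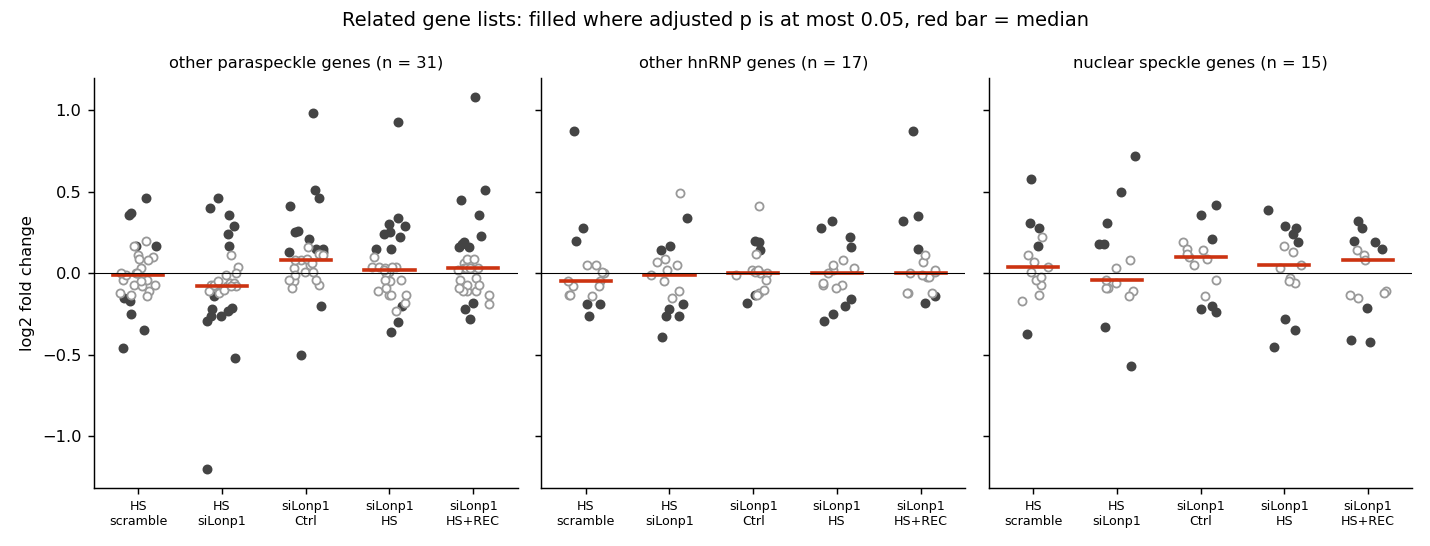
Log2 fold changes (y axis) of the other paraspeckle, other hnRNP and nuclear speckle genes in 5 comparisons (x axis), with 1 point per gene, filled where the edgeR adjusted p is at most 0.05, and a red bar at the list's median. Filled points stand on both sides of 0 in every list, and the medians lie between -0.08 and 0.1.

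NEAT1 lies at chr11:65422774-65445540 and MALAT1 at chr11:65497640-65508073, both on the plus strand of hg38 and annotated as lncRNA genes, with FRMD8 directly before NEAT1. Of 17 neighbouring protein genes, 4 rose and 3 fell with HS in scramble cells (median -0.03), and 1 rose and 5 fell in siLonp1 cells (median -0.12), where 36% and 42.2% of all genes were called and the medians of all genes were -0.01 and 0. FRMD8 had HS effects of -0.06 (adjusted p = 0.531) in scramble and -0.37 (adjusted p = 0.000209) in siLonp1 cells.

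The neighbour with the largest rise with HS was TIGD3, at -68.0 kb from the NEAT1 start, by 1.2 and 1.24, but its level was only 0.708 ± 0.0414 CPM in Ctrl scramble. KCNK7, also low at 0.547 CPM, rose by 1.37 and 1.67 with HS+REC and fell by 0.9 with HS in siLonp1 cells (adjusted p = 0.0471). MAP3K11, a kinase gene, rose by 0.72 and 0.54 with HS+REC, and SLC25A45, a mitochondrial carrier gene, fell by 0.4 and 0.58. CDC42EP2, a Cdc42 effector gene at -107.9 kb, was called in the same direction as MALAT1 in 3 comparisons and differed from it in others. It rose by 0.35 with HS in scramble cells, rose by 0.63 with siLonp1 in Ctrl, and had a negative difference between the arms in the HS effect (-0.74, adjusted p = 0.00649), but it fell by 0.4 with HS in siLonp1 cells, and its HS+REC effect in scramble cells was 0.03 (adjusted p = 0.851). With siLonp1 in Ctrl 7 of the 17 neighbours rose and 2 fell, where 49.2% of all genes were called, and LTBP3 rose by 0.74, 0.62 and 0.9 in Ctrl, HS and HS+REC, where SLC25A45 fell by 0.56, 0.44 and 0.74. TALAM1, an RNA annotated on the strand opposite MALAT1 at chr11:65499312-65507432, is not among the counted genes. The strand setting of the counting is not given in the sources used here, so reads of both strands may have entered the MALAT1 count.

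**Figure D5:**
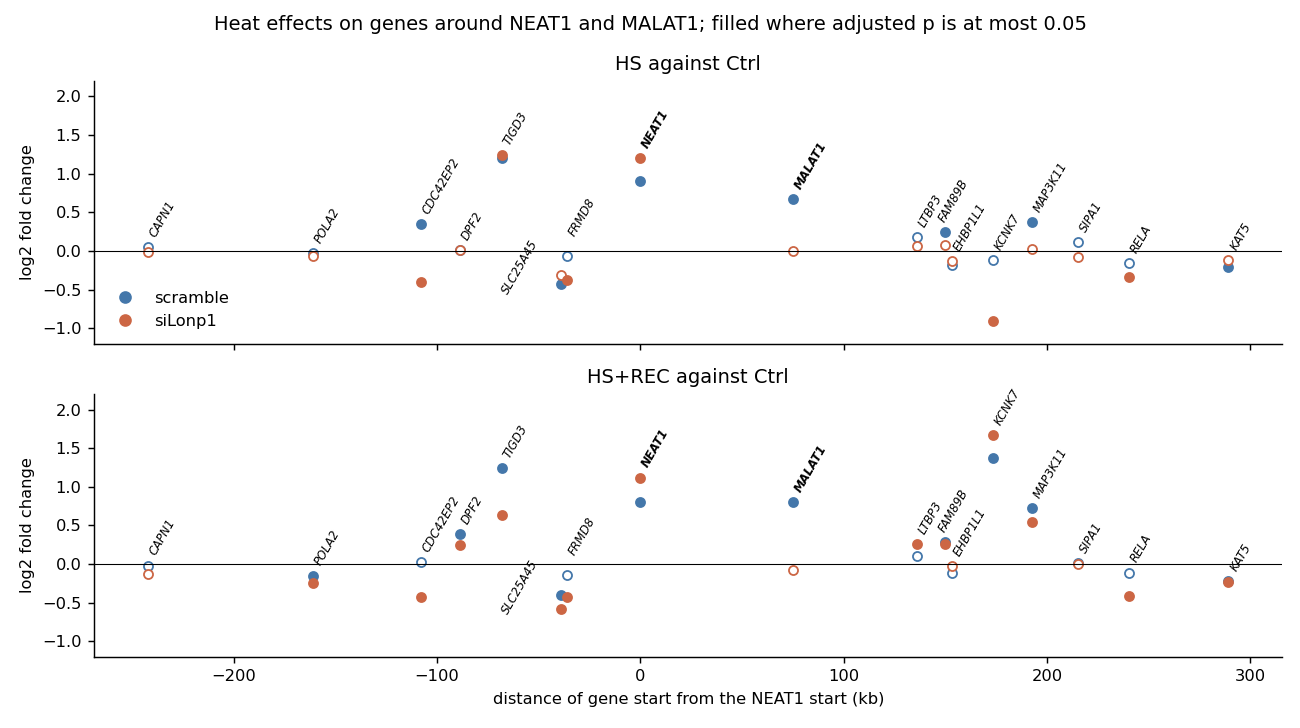
Log2 fold change (y axis) of NEAT1, MALAT1 and the neighbouring genes with a position, by the distance of each gene's start from the NEAT1 start in kb (x axis), for HS and HS+REC against Ctrl in both siRNA arms, filled where the edgeR adjusted p is at most 0.05. FRMD8, next to NEAT1, lies at or below 0 in all 4 comparisons.

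The genes whose log2 CPM followed NEAT1 most closely over the 18 libraries were CCDC150 (Pearson r = 0.971), BCL6 (0.969), ZNF610 (0.967), LLPH-AS1 (0.965) and HEXIM2 (0.965). For MALAT1 the likeness was weaker, with EFNB2 at 0.78, MBD1 at 0.758, MKL1 at 0.755, AFAP1 at 0.743 and SLC25A44 at 0.731. The libraries share groups, depth and scaling, so these values are a description. Over the 6 group means alone HELQ (0.998) came first for NEAT1 and PNPLA3 (0.96) for MALAT1, and of the 5 genes first named for each lncRNA only MKL1 was again among the top 5 (0.923). Among the members themselves the correlations furthest from 0 over libraries were 0.69, between SFPQ and TARDBP, and -0.69, between NEAT1 and NONO. Those of their deviations from the group means were -0.09 and -0.14. Within groups the largest was 0.52, between NONO and PSPC1.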

How the data were processed

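Poly(A) RNA of SW620 cells was sequenced from stranded, paired-end libraries. The authors aligned reads with STAR 2.7.3a to hg38 and assigned them to genes with featureCounts under R 3.6.3. The deposited values are raw counts per gene, not normalized. The annotation release, strand setting and treatment of multiply mapped reads are not given in the sources used here. All 18 libraries, grouped by their labels, entered 1 model with a mean per group.

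The study's filter, a CPM over 1 in 3 or more libraries, left 12832 genes, which were tested with edgeR 4.0.16 (TMM factors 0.934 to 1.06, quasi-likelihood test, Benjamini-Hochberg adjustment over all genes tested, R 4.3.3). A gene was called at an adjusted p of at most 0.05 at any fold change. SE and 95% intervals come from the same fit, and CPM values are TMM-scaled. p-values over 3 libraries per group measure only the spread between them. No 2 libraries of a group differed by as little as counting noise (chi-square per degree of freedom 3.48 to 25.8). On simulated counts for HS in scramble cells, with 12637 genes tested and folds from 1.5, the test recovered 199 of 200 changed genes with 13 false calls. Smaller folds, among them all changes of the protein members, and differences between the arms were not simulated. Totals of 30815860 counts or more left NEAT1 with 518 counts or more in each library.

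The members and the gene lists were chosen with earlier results of these data known. Genes named from a list for a change are among its up to 4 called genes per comparison with the largest absolute log2 fold change (not all of these are named), plus FRMD8 whatever its values, and markers are named for their levels, chosen after these were seen. From the neighbouring genes, 1 item is not reported here. Of the symbols listed and counted, U2AF1, MEG3, CDX1, PTPRC, CD3E, COL1A2 and PECAM1 did not pass the filter. Likeness to NEAT1 and MALAT1 is Pearson's r of log2 CPM with a prior count of 2. Positions and transcript lengths are from GENCODE 44 on hg38, and mascRNA is from RefSeq. Alternatives were RLE factors, library totals alone, no filter or CPM above 1 in all libraries, the likelihood ratio test, DESeq2 1.42.0, a replicate block, only the groups compared, a fold limit of 2, an adjusted p of 0.01, and each library left out.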

Additional observations from a re-analysis of the deposited data

Results flagged for a closer look

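The effect of heat on MALAT1 passed the test of the difference between the siRNA arms for HS+REC and, at the threshold, for HS. For HS the effect in siLonp1 cells minus that in scramble cells was -0.67 (log2, adjusted p = 0.049 in edgeR's quasi-likelihood test), with MALAT1 higher in 3 of 3 HS than Ctrl libraries in scramble cells and overlapping in siLonp1 cells. That call was lost in 10 of 12 fits without a single library (-0.76 to -0.54 over the 12), with the replicate block (adjusted p = 0.0666), with RLE factors (adjusted p = 0.0553) and with CPM above 1 in all libraries (adjusted p = 0.0507). For HS+REC the difference was -0.88 (adjusted p = 0.00959), and it passed in all 12 fits without a single library. Both rest on the same Ctrl libraries, 25.85 to 31.32 CPM in scramble and 45.69 to 48.65 CPM in siLonp1 cells. Total counts overlapped between these groups, at 39154783 to 45013503 in Ctrl scramble and 38838617 to 40377723 in Ctrl siLonp1, whereas the TMM factors did not, at 1.05 to 1.06 and 0.993 to 1.01. Their part in the result was not tested, and with scaling by totals alone the differences were -0.69 (adjusted p = 0.0433) for HS and -0.88 (adjusted p = 0.0122) for HS+REC.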

How the results depend on the processing

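NEAT1's rise with HS and HS+REC in both arms, its fall with siLonp1 in Ctrl, MALAT1's rise with HS and HS+REC in scramble cells and with siLonp1 in Ctrl, and its difference between the arms for HS+REC kept direction and call under every alternative fit and without each single library. A fold limit of 2 kept only NEAT1 in siLonp1 cells.

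The replicate numbers did not pair the libraries, since in 0 of 9 comparisons did every pair of same-numbered libraries deviate together with r above 0.1, and 6 of 18 libraries correlated best with their own number. With the replicate block MALAT1's difference between the arms for HS was -0.67 and not called (adjusted p = 0.0666), which left 0 members called there and 1 other paraspeckle gene, and 1 member remained called from HS to HS+REC in siLonp1 cells. Over all genes the block gave 0.75 to 0.984 times the calls. RLE factors, and CPM above 1 in all libraries, each also gave 0 members and 1 other paraspeckle gene for that difference, and no filter, or only the groups compared, gave 1 member from HS to HS+REC in siLonp1 cells. Only the groups compared gave 6 other paraspeckle genes with siLonp1 after HS+REC. DESeq2 called 2 members with HS in siLonp1 cells, and 2 members and 1 other paraspeckle gene for the difference in the HS+REC effect. Over all genes, DESeq2 called 5495 with HS in siLonp1 cells, where edgeR called 5420 (42.2%). For the difference in the HS+REC effect DESeq2 called 317 of all genes, where edgeR called 203 (1.58%), so its calls there rose beyond the members too.

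Scaling by totals alone moved the median of all genes by up to -0.1 and called 3 members with HS in siLonp1 cells, 1 from HS to HS+REC there and 2 with siLonp1 in Ctrl. It turned these uncalled values negative: MALAT1 with HS in siLonp1 cells (-0.043), SFPQ (-0.005), NONO (-0.073) and HNRNPK (-0.065) with HS+REC in scramble cells, PSPC1 (-0.028) and HNRNPK (-0.067) with HS+REC in siLonp1 cells, NONO from HS to HS+REC in siLonp1 cells (-0.002), TARDBP with siLonp1 in Ctrl (-0.018), MALAT1 (-0.079), NONO (-0.027) and PSPC1 (-0.082) with siLonp1 after HS, NONO after HS+REC (-0.058), and HNRNPK's difference for HS (-0.002). HNRNPK with HS+REC in siLonp1 cells was -0.007 with no filter. With RLE factors and with DESeq2, NONO with HS+REC in scramble cells was 0.000 and HNRNPK's difference for HS+REC 0.011.

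With a fold limit of 2, 0 members and 0 other paraspeckle genes were called in every comparison except NEAT1 with HS and HS+REC in siLonp1 cells (1 each), AHDC1 with HS in siLonp1 cells (1) and SS18L1 with siLonp1 after HS+REC (1). At an adjusted p of 0.01, 1 member was called from HS to HS+REC in siLonp1 cells, 1 with siLonp1 after HS and 0 for the difference in the HS effect, and 6, 8, 8 and 1 other paraspeckle genes were called with HS in scramble, from HS to HS+REC in siLonp1 cells, with siLonp1 in Ctrl and for that difference.

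Without single libraries, members called ranged from 0 to 1 (difference for HS), 1 to 2 (difference for HS+REC), 1 to 2 (HS to HS+REC, siLonp1) and 1 to 3 (siLonp1 after HS), and other paraspeckle genes from 1 to 2 (difference for HS), 8 to 12 (siLonp1 in Ctrl) and 8 to 12 (HS to HS+REC, siLonp1). In comparisons where the count stayed within 1.5 times, members called ranged from 2 to 3 with HS in scramble cells, with HS+REC in either arm and with siLonp1 after HS+REC, and from 3 to 4 with siLonp1 in Ctrl, and other paraspeckle genes from 7 to 12 (HS, scramble), 12 to 14 (HS, siLonp1), 11 to 15 (HS+REC, scramble), 18 to 19 (HS+REC, siLonp1), 5 to 7 (HS to HS+REC, scramble), 8 to 15 (siLonp1 after HS) and 8 to 13 (siLonp1 after HS+REC). Uncalled values that changed sign ranged, for HNRNPK, from -0.054 to 0.022 (difference for HS+REC), -0.035 to 0.040 (HS+REC, siLonp1), -0.009 to 0.046 (difference for HS), -0.050 to 0.005 (HS, siLonp1), -0.074 to 0.002 (difference from HS to HS+REC), -0.009 to 0.045 (HS+REC, scramble) and -0.014 to 0.062 (HS to HS+REC, siLonp1). MALAT1 ranged from -0.071 to 0.134 (HS, siLonp1) and from -0.076 to 0.146 (siLonp1 after HS), NEAT1 from -0.053 to 0.067 (difference from HS to HS+REC), PSPC1 from -0.017 to 0.043 (siLonp1 after HS), SFPQ from -0.082 to 0.010 (HS to HS+REC, scramble), and NONO from -0.016 to 0.059 (HS to HS+REC, siLonp1) and -0.026 to 0.043 (siLonp1 after HS+REC). The cause of these changes was not tested. NEAT1 and MALAT1 carry the fewest counts, and 3 libraries per group leave the 95% intervals of their 2-group differences about 0.4 to 0.5 wide on the log2 scale, which limits what could be detected.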

Other observations

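Among 21 other lncRNA genes tested, MIR17HG, the host gene of the miR-17 cluster, fell far more with HS than any of the 7 genes described above moved. Its mean was 8.91 ± 1.23 CPM (SD, n = 3) in Ctrl scramble, 1.52 ± 0.108 CPM after HS and 8.86 ± 1.45 CPM after HS+REC. In siLonp1 cells it was 7.18 ± 0.337, 0.84 ± 0.256 and 6.4 ± 1.93 CPM. It fell by 2.54 (log2) in scramble and by 3.09 in siLonp1 cells with HS and rose by 2.53 and 2.92 from HS to HS+REC (edgeR adjusted p from 9.59e-11 to 9.21e-10). SNHG12, a snoRNA host gene, rose by 0.91 and 0.98 with HS and then fell by 0.42 and 0.78 from HS to HS+REC.

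With siLonp1, MIR22HG, the host gene of miR-22, rose by 1.0 in Ctrl, 1.58 after HS and 1.26 after HS+REC. Its heat effect differed between the arms for HS (0.58, adjusted p = 0.0112), higher in siLonp1 cells, a sign opposite to that of MALAT1. MIAT rose by 2.16, 2.47 and 2.02, from a low level of 0.366 ± 0.0665 CPM in Ctrl scramble to 1.66 ± 0.422 CPM in Ctrl siLonp1, and LINC00152 rose by 0.57, 0.78 and 0.83. Of the 21 lncRNA genes, 4 rose and 7 fell with siLonp1 in Ctrl, 5 rose and 3 fell after HS and 6 rose and 8 fell after HS+REC, where 49.2%, 54.8% and 54.1% of all genes tested were called. With HS 2 rose and 5 fell in scramble and 10 rose and 4 fell in siLonp1 cells, where 36% and 42.2% of all genes were called.

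Of the epithelial and intestinal markers, CDX2, an intestinal transcription factor, fell with siLonp1 by 0.9, 1.38 and 1.07 in Ctrl, HS and HS+REC, and CDH1, the E-cadherin gene, rose by 0.62, 0.62 and 0.49. Of the markers of other cell types, COL1A1 rose with HS by 0.89 in scramble and 0.76 in siLonp1 cells, and with HS+REC by 1.71 and 1.78, while LUM fell with HS by 0.4 and 0.27. With siLonp1 LUM fell by 1.49, 1.36 and 1.36, and CD68 rose by 0.35, 0.53 and 0.44.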
